A study of Homo sapiens with 6 samples.

Results

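Natural killer (NK) cells read their targets through germline-encoded surface receptors, and 10 genes for such receptors and for the adaptors that couple them to signalling were followed on 6 expression arrays. The members are NCAM1, which encodes the adhesion molecule CD56 that defines human NK cells by flow cytometry, the inhibitory immunoglobulin-like receptor CD300A, the lectin-like receptors KLRB1 (CD161), KLRD1 (CD94) and KLRK1 (NKG2D), the SLAM-family receptors CD244 and SLAMF7, the immunoglobulin-like receptor CD160, and the transmembrane adaptors TYROBP (DAP12) and HCST (DAP10). They were found through the transcript accession that each probe carries, which gave 15 probes for the 10 genes out of 25729 probes for 19722 named genes. Several activating NK receptors have short tails and signal through partners. TYROBP carries an immunoreceptor activation motif that recruits SYK and ZAP70, whereas HCST carries a motif for phosphoinositide 3-kinase and serves KLRK1. Inhibitory receptors such as CD300A instead recruit phosphatases such as PTPN6. T and NK cells can arise from shared progenitors in the thymus, and several of these genes are also used by T cells or by myeloid cells.

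RNA came from RPMI-8402, an established line of human T-cell leukaemia, transduced with lentivirus for a control short hairpin RNA (control), a hairpin against GATA3 (shGATA3) or a hairpin against TCF7, the gene that encodes TCF1 (shTCF1). Per the labels, cells were collected at 48 h and sorted for EGFP, which per the study's methods took the place of puromycin resistance in the control and GATA3 hairpin vectors, and 100 ng of RNA was labelled with Cy3. Each group had 2 samples, each on 1 array. The samples of a group came from independent experiments according to the study, and the labels do not tie samples of different groups to a shared experiment. The comparisons ask whether NK-associated genes change when GATA3 or TCF1, factors of the T lineage, is targeted.

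The hairpin targets were read first. The GATA3 probe gave normalized log2 intensities of 9.51 and 9.53 on the control arrays, 9.43 and 9.52 on the shGATA3-labelled arrays, and 9.73 and 9.87 on the shTCF1 arrays. GATA3 RNA was not measurably lower where its hairpin was labelled (log2 difference -0.05, SE 0.105, 95% interval -0.31 to 0.21, limma adjusted p = 0.795), and that group is called by its label throughout. TCF7 was lower on the shTCF1 arrays by both of its probes (log2 differences -1.31 and -1.48 from control, limma adjusted p = 0.00393 and 0.00462). The control arrays were brighter, with 75th percentile intensities of 271 and 290 against 166 to 179 on the other 4, and they lay in another row of the slide, so that row and control status cannot be told apart. Within their shared row, the shTCF1 arrays lay in columns 1 and 2 and the shGATA3-labelled arrays in columns 3 and 4, so column and hairpin cannot be told apart either.

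Of 16 T-lineage markers, 14 were present on every array, that is, well above background. The summed linear level of all 16 was 103000 to 105000 on the control arrays, 147000 to 160000 on the shGATA3-labelled arrays and 93700 to 109000 on the shTCF1 arrays. Of the 16 tested, 3 were called higher and 1 lower on the shGATA3-labelled arrays against control, and 2 higher and 3 lower on the shTCF1 arrays. This sum therefore does not describe the T-lineage list as a group. Of 16 NK effector and lineage markers, 5 were above background on all arrays (GZMB, NKG7, CCL4, XCL1 and NCR1) and 7 on none, PRF1, FCGR3A and KLRF1 among them. The same sum for that list was 3500 to 3510 on the control arrays, 7540 to 7600 on the shGATA3-labelled arrays and 3170 to 3280 on the shTCF1 arrays, although only 1 of its 7 tested genes was called higher on the shGATA3-labelled arrays against control, so the sum does not describe the list as a group. The sums for 9 measured myeloid markers were 1000 to 1040, 1050 to 1170 and 1320 to 1350, with CD33, CEBPA and S100A8 at background on every array. Of the 6 tested, 1 was called higher and 1 lower on the shTCF1 arrays against control, so this sum does not describe its list as a group either. For 7 B-cell markers the sums were 1990 to 5390, 2250 to 3840 and 3770 to 4200, with CD22 and EBF1 at background on every array. Of all tested genes, 2.79% were called higher and 4.14% lower on the shGATA3-labelled arrays against control, and 6.26% and 9.99% on the shTCF1 arrays. The part of these marker levels in the member results was not tested.

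A smaller share of the members than of all genes was detected. Presence was read from the mark that the scanner software gives to spots well above background. NCAM1, CD300A, TYROBP and HCST were present on all 6 arrays by 1 probe each, which is 40.0% of the members against 68.6% of the 19722 named genes. KLRD1, KLRK1, CD160 and SLAMF7 were not well above background on any array, again 40.0%, against 21.6% of named genes. KLRB1 was present on 5 arrays and CD244 on 4. A gene was tested if it had a probe that was present on both arrays of at least 1 group. That probe also needed a spot without an outlier mark on every array. By these rules 6 members passed: NCAM1, CD300A, KLRB1, CD244, TYROBP and HCST. Because RNA was taken from cells in bulk, a larger share of cells with a transcript and more transcript per cell cannot be told apart.

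Between the shGATA3-labelled arrays and the control arrays, 3 of the 6 tested members were called at an adjusted p below 0.05 (limma, 2 arrays per group), and all 3 (NCAM1, CD300A and HCST) were higher. The background was 6.93% of 14491 tested genes called in either direction, 2.79% called higher and 4.14% called lower. On the shTCF1 arrays 1 of 6 (NCAM1) was called, and it was lower than control, where 16.2% of all genes were called, 6.26% higher and 9.99% lower. Directly between the hairpins 3 of 6 were called (NCAM1, CD300A and HCST), all higher on the shGATA3-labelled arrays, against 6.58% of all genes called, 3.75% higher and 2.83% lower. These counts cover only the members bright enough to be tested, and the comparisons share arrays. The members were also chosen with earlier results of these data known. The study itself names NCAM1 among genes higher after GATA3 knockdown than after TCF7 knockdown. The counts beside the background are therefore a description and no test of the members as a set. The median log2 difference of the 6 was 0.45, -0.16 and 0.56 in the 3 comparisons, beside -0.03, -0.05 and 0.00 for all tested genes. The values of the groups compared did not overlap for 4, 3 and 4 of the 6 members, where 63.0%, 69.2% and 53.4% of all genes did not overlap, so these counts are near the background. Leaving out any 1 of the 4 arrays compared left fewer calls against control on the shGATA3-labelled arrays. This held for the members, as given for each member below, and for all tested probes. With the authors' deposited matrix in place of the scanner values, limma called 0 members in each comparison, with 3, 1 and 2 at an unadjusted p under 0.05. Of all 31134 tested probes 0 were called there too, with 1814, 2652 and 1642 at an unadjusted p under 0.05, so the 0 is not particular to the members. The columns of that matrix did not all follow the arrays they are named for (r = 0.8224 for control array 2).

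**Figure D1:**
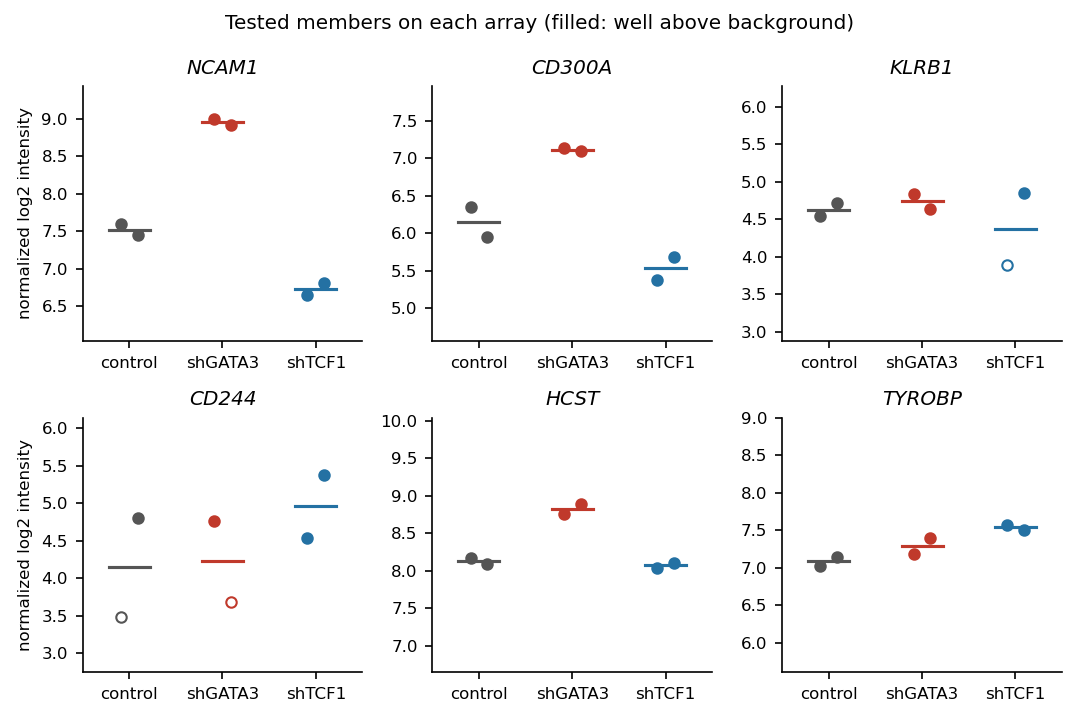
Normalized log2 intensity (vertical axis, each panel spanning the same log2 range) of the 6 tested members on each array of the control, shGATA3 and shTCF1 groups. Points are arrays, lines are group means, and open points were not well above background. NCAM1, CD300A and HCST were highest on both shGATA3-labelled arrays. CD244 varied widely within each group, and KLRB1 did so on the shTCF1 arrays only. TYROBP ran from 7.03 on a control array to 7.58 on an shTCF1 array.

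NCAM1 differed between all 3 groups. Its tested probe (A_33_P3363799) read 7.60 and 7.44 on the control arrays, 9.0 and 8.92 on the shGATA3-labelled arrays, and 6.64 and 6.81 on the shTCF1 arrays, in normalized log2 units. The order was thus shGATA3, control, shTCF1, and no group overlapped another. Relative to control the level was 2.70-fold higher on the shGATA3-labelled arrays (log2 difference 1.43, SE 0.117, n = 2 and 2, limma adjusted p = 0.00442), and 1.09% of the 31134 tested probes had a larger absolute difference. With shTCF1 it was lower than control by a log2 difference of -0.79 (SE 0.117, limma adjusted p = 0.0129). The direct difference between the hairpins was 4.68-fold (log2 difference 2.23, 95% interval 1.94 to 2.51, limma adjusted p = 0.000977), and 0.321% of tested probes had a larger one. The decrease with shTCF1 was not called when control array 1 was left out (-0.71, limma adjusted p = 0.0778) or when shTCF1 array 1 was (-0.71, limma adjusted p = 0.0552), whereas the other NCAM1 calls held without any single array. In those fits a lone array is assumed to vary like the other groups. The other NCAM1 probes, A_23_P1740 and A_33_P3363804, carry other transcript accessions and were at background on every array, so the change was seen by 1 probe of 3.

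CD300A had its group means in the same order as NCAM1. Its tested probe (A_23_P207037) read 6.34 and 5.95 on the control arrays, 7.13 and 7.10 on the shGATA3-labelled arrays, and 5.38 and 5.68 on the shTCF1 arrays. The groups did not overlap, and the control arrays differed most among themselves. CD300A was 1.96-fold higher than control on the shGATA3-labelled arrays (log2 difference 0.97, SE 0.172, limma adjusted p = 0.0324). The call was lost when any of the 4 arrays compared was left out, with differences from 0.77 without control array 2 to 1.17 without control array 1 and limma adjusted p from 0.0559 without control array 1 to 0.124 without shGATA3 array 2. It was also lost with the replicate number as a block (limma adjusted p = 0.0583) and with no filter on dim probes (limma adjusted p = 0.0998). The log2 difference of shTCF1 from control was -0.62 (95% interval -1.04 to -0.20, limma adjusted p = 0.0594) and was not called, so these neighbours in the order did not differ beyond the threshold. Directly between the hairpins CD300A differed by 3.0-fold (log2 difference 1.59, SE 0.172, limma adjusted p = 0.00689), a call that was lost without shGATA3 array 2 (1.6, limma adjusted p = 0.0521).

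A second CD300A probe (A_24_P159434), which carries the same transcript accession, separated the hairpins far more. Before normalization its intensities were 522 and 491 on the shGATA3-labelled arrays, against 3.52 and 3.65 on the shTCF1 arrays, where it was not well above background. The control arrays disagreed. Control array 2 read 12.2, also not well above background, and control array 1 read 339 on a spot that the scanner software marked as an outlier. The probe had only that spot on the array and was therefore left out of the main test. With the dimmest probe still above background taken as the floor of each array, its level was at least 31.3-fold higher on the shGATA3-labelled arrays than on the shTCF1 arrays (means 9.16 and 2.98 log2 units). The marked spot alone was also left out, a choice made after seeing the data. The level on the shGATA3-labelled arrays was then at least 34.1-fold higher than on control array 2, a lone control array. With the marked spot kept, the log2 difference from control was 3.27 (SE 1.25, limma adjusted p = 0.17), so the second probe gives no settled value for control. The direct difference with that spot kept was 6.17 (SE 1.25, limma adjusted p = 0.0471). Either way the probe enters a test only through the group in which it was high, and the shTCF1 side is signal near background. Both CD300A probes were higher on the shGATA3-labelled arrays than on the shTCF1 arrays, and the size of that difference depended on the probe.

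**Figure D2:**
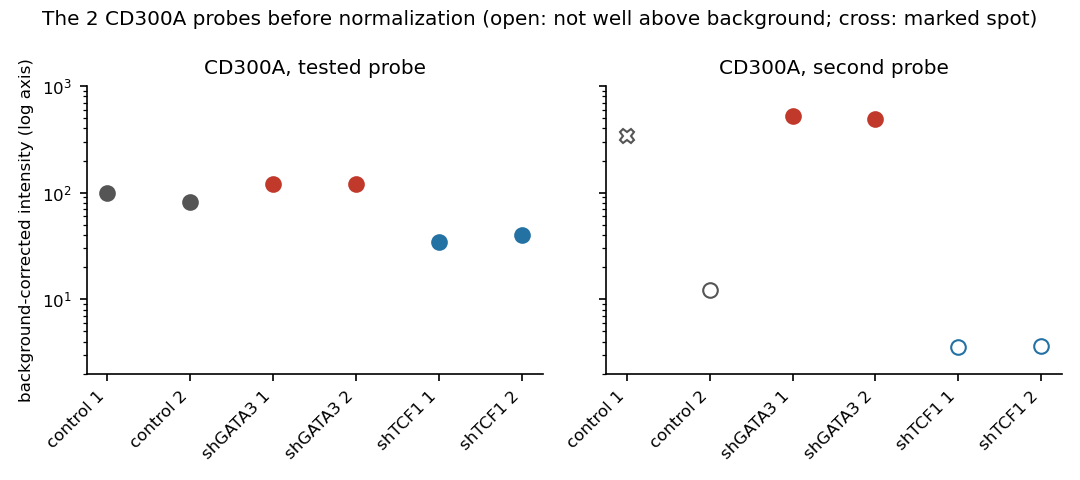
Background-corrected intensity before normalization (vertical log axis) of the 2 CD300A probes on each of the 6 arrays. Open points were not well above background and the cross is the spot marked as an outlier. The tested probe stayed between 34.2 and 120.4 on all arrays, while the second probe was at 522 and 491 on the shGATA3-labelled arrays and at 3.52 and 3.65 on the shTCF1 arrays.

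The adaptor genes HCST and TYROBP, neighbours on chromosome 19, did not share a pattern. HCST, which links KLRK1 to phosphoinositide 3-kinase, read 8.17 and 8.09 on the control arrays, 8.76 and 8.89 on the shGATA3-labelled arrays, and 8.04 and 8.11 on the shTCF1 arrays. The arrays labelled shGATA3 stood apart and the other groups overlapped. HCST was 1.62-fold higher there than in control (log2 difference 0.69, SE 0.105, limma adjusted p = 0.0218) and 1.69-fold higher than with shTCF1 (log2 difference 0.75, SE 0.105, limma adjusted p = 0.0157). The shTCF1 arrays differed from control by -0.06 (95% interval -0.32 to 0.20, limma adjusted p = 0.722), a sign that turned under other scalings. Before normalization the HCST intensities were 370.5 and 384 on the brighter control arrays and 377 and 427 on the shGATA3-labelled arrays, so the difference appears only once arrays are scaled to each other. It was called under all 3 other scalings of the scanner values and was lost with no filter on dim probes (limma adjusted p = 0.0581). Without any 1 of the 4 arrays compared the call against control was lost (log2 differences 0.63 to 0.76, limma adjusted p 0.0524 without shGATA3 array 1 to 0.107 without control array 1). The direct call was lost without shGATA3 array 2, shTCF1 array 1 or shTCF1 array 2 (limma adjusted p 0.0723, 0.0671 and 0.0613).

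TYROBP, the adaptor of activating killer receptors and of several myeloid receptors, read 7.03 and 7.15 on the control arrays, 7.18 and 7.40 on the shGATA3-labelled arrays, and 7.58 and 7.50 on the shTCF1 arrays. The groups did not overlap, with shTCF1 highest and control lowest, but no TYROBP difference was called. The shTCF1 arrays lay above control by a log2 difference of 0.45 (95% interval 0.16 to 0.74, limma adjusted p = 0.0524) and the shGATA3-labelled arrays by 0.20 (95% interval -0.09 to 0.49, limma adjusted p = 0.335). The first of these passed the threshold under 5 other settings, quantile normalization among them (0.54, limma adjusted p = 0.045), and without shGATA3 array 1 or shGATA3 array 2 (0.45, limma adjusted p = 0.0493 for each).

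**Figure D3:**
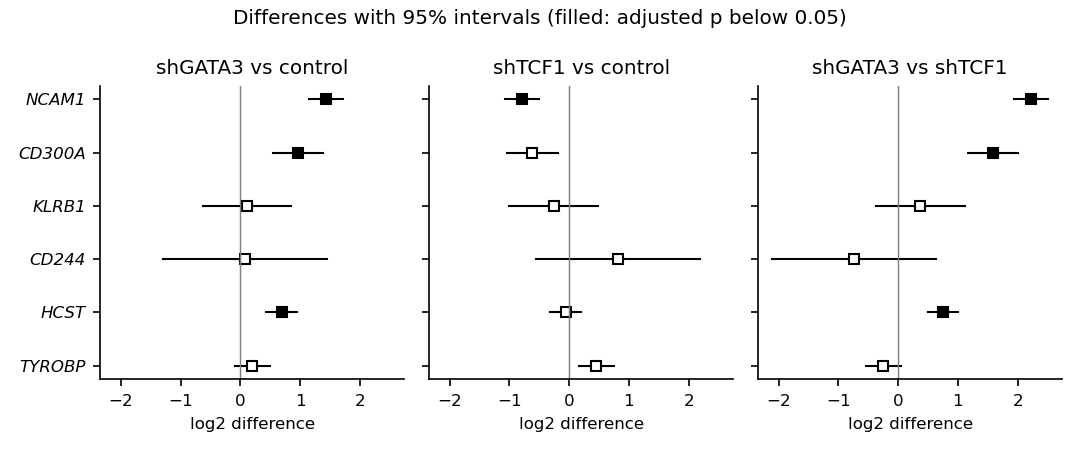
Log2 difference (horizontal axis) of each tested member in the 3 comparisons, with 95% intervals from the limma fit as lines and filled squares for an adjusted p below 0.05. NCAM1, CD300A and HCST were called higher on the shGATA3-labelled arrays than on control and shTCF1 arrays, NCAM1 alone was called on the shTCF1 arrays against control, and the widest intervals were those of CD244.

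KLRB1 and CD244 were close to background. Arrays of the same group differed as much as the group means did, for KLRB1 on the shTCF1 arrays and for CD244 in every group. KLRB1, a lectin-like receptor of NK cells and T-cell subsets, read 4.54 and 4.72 on the control arrays, 4.84 and 4.64 on the shGATA3-labelled arrays, and 3.89 and 4.85 on the shTCF1 arrays, the lowest of these not well above background. All groups overlapped. Its log2 differences from control were 0.11 on the shGATA3-labelled arrays (95% interval -0.63 to 0.86, limma adjusted p = 0.844) and -0.26 on the shTCF1 arrays (95% interval -1.0 to 0.48, limma adjusted p = 0.577), and the second turned to 0.22 without shTCF1 array 1.

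CD244, a receptor for CD48 on other blood cells, read 3.49 and 4.81 on the control arrays, 4.77 and 3.68 on the shGATA3-labelled arrays, and 4.54 and 5.38 on the shTCF1 arrays. Control array 1 and shGATA3 array 2 were not well above background, so detection varied within both groups. CD244 differed from control by 0.08 on the shGATA3-labelled arrays (95% interval -1.30 to 1.45, limma adjusted p = 0.945) and by 0.81 on the shTCF1 arrays (95% interval -0.56 to 2.19, limma adjusted p = 0.343). The first of these turned to -0.58 without control array 1 and to -0.47 without shGATA3 array 1. A further CD244 probe (A_33_P3234292) was well above background on shGATA3 array 2 alone.

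KLRD1, KLRK1, CD160 and SLAMF7 had no level above background to compare. The 2 KLRD1 probes gave intensities of 3.04 to 5.33 over the arrays, and the KLRK1 probe gave 3.34 to 5.12. KLRD1 pairs with NKG2 proteins such as that of KLRC1, and KLRC1 was well above background on all 6 arrays without a called difference (log2 differences from control 0.03 and 0.13, limma adjusted p = 0.878 and 0.47), a gene named after its values were seen. KLRC1 belongs to a family of very similar genes, so its probe may also read its relatives. CD160, a receptor for TNFRSF14, reached its highest intensity of 18.0 on control array 2, and SLAMF7, which binds itself on other cells, reached 9.25 on shGATA3 array 2. HCST was thus detected on every array while KLRK1, the receptor it serves, was detected on none.

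Promoter sequence in the RefSeq tables (GRCh38.p14) covered 6 members, CD300A, KLRB1, CD244, TYROBP, HCST and CD160, as 250 bases before and 50 bases after the start. Each was searched for the GATA words AGATAA and TGATAA and for the TCF/LEF word CTTTGA, on both strands. A GATA word stood in 16.3% of all 35116 promoters of that length and in 1 of the 6 members, KLRB1. A TCF/LEF word stood in 12.9% of all promoters and in 1 of the 6, CD160, where its reverse complement TCAAAG began 95 bases before the start. The promoters of CD300A and HCST are shown because these genes were called higher on the shGATA3-labelled arrays, and that of KLRB1 because it holds the GATA word, in capitals, 74 bases before the start. They lie at chr17:74466123-74466422 (plus strand), chr19:35902279-35902578 (plus strand) and chr12:9607867-9608166 (minus strand).
CD300A: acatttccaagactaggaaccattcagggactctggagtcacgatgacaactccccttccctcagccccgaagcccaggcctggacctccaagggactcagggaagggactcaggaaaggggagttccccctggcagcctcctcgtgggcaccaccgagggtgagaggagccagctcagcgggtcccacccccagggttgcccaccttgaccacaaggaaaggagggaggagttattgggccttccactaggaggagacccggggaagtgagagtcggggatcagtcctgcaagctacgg
HCST: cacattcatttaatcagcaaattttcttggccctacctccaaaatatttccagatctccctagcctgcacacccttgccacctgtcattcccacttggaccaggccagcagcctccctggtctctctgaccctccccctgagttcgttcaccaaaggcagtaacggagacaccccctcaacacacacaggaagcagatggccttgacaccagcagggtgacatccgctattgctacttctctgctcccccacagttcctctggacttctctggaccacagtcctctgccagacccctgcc
KLRB1: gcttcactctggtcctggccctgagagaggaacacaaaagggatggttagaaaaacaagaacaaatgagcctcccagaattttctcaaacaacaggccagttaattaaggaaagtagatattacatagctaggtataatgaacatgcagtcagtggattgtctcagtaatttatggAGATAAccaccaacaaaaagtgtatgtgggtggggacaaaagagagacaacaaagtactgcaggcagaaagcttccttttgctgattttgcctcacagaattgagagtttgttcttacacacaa
Neither the CD300A nor the HCST window held any of these words, and KLRB1, whose window held one, was not called in any comparison. A word in a promoter is a description of these letters and not a binding site.

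Listed genes around the members were read in the same fits, where 6.93%, 16.2% and 6.58% of all tested genes were called in the 3 comparisons. Of 25 other NK receptors 13 were tested, and 0 were called higher and 2 lower on the shGATA3-labelled arrays against control. LAIR1, an inhibitory collagen receptor, had a log2 difference of -0.59 (limma adjusted p = 0.0343, with a second probe at -0.24 and 0.201). CD2, an adhesion receptor shared by T and NK cells, read 11.86 and 11.87 on the control arrays, 11.38 and 11.42 on the shGATA3-labelled arrays and 9.66 and 9.70 on the shTCF1 arrays. Its log2 difference was -0.47 on the shGATA3-labelled arrays (limma adjusted p = 0.0439) and -2.19 on the shTCF1 arrays (limma adjusted p = 0.00199), where it was the only 1 of the 13 called. Both calls on the shGATA3-labelled arrays were lost without any single array of the 6 (limma adjusted p up to 0.191 for LAIR1 and 0.217 for CD2, both without control array 1). Directly between the hairpins CD2 was higher on the shGATA3-labelled arrays by 1.72 (limma adjusted p = 0.00107), while it was lower there than in control. With the deposited matrix the differences of CD2 from control turned to 2.69 and 0.85 and that of LAIR1 on the shGATA3-labelled arrays to 2.28, none called. The median log2 difference of the 13 was 0.01, -0.05 and -0.02 in the 3 comparisons.

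Of 19 adaptors and signalling partners 17 were tested. On the shGATA3-labelled arrays, PTPN6 and LAT were higher and PIK3CD lower than control. PTPN6, the phosphatase that inhibitory receptors such as CD300A recruit, read 8.08 and 8.06 on the control arrays, 8.92 and 9.07 on the shGATA3-labelled arrays and 8.60 and 8.65 on the shTCF1 arrays. It was higher with both hairpins, by 0.93 (limma adjusted p = 0.00995) and 0.55 (limma adjusted p = 0.0225). LAT, a scaffold of T-cell receptor and NK signalling, read 13.35 and 13.19 on the control arrays, 13.93 and 13.92 on the shGATA3-labelled arrays and 11.64 and 11.82 on the shTCF1 arrays. Its log2 differences of 0.66 (limma adjusted p = 0.0314) and -1.54 (limma adjusted p = 0.00387) run in opposite directions like those of NCAM1, and the direct difference was 2.20 (SE 0.115, limma adjusted p = 0.000977). PIK3CD, a catalytic subunit of phosphoinositide 3-kinase, was lower with both hairpins (-0.69 and -0.85, limma adjusted p = 0.0336 and 0.0126), by its brighter probe. Its first call was lost without any single array of the 6 (limma adjusted p up to 0.178) and its second without control array 1 or shTCF1 array 1 (limma adjusted p up to 0.0725).

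On the shTCF1 arrays 2 of the 17 were called higher and 5 lower than control. FCER1G, a signalling subunit that can take the place of TYROBP in several receptors, read 9.36 and 9.35 on the control arrays, 9.31 and 9.47 on the shGATA3-labelled arrays, and 9.91 and 9.98 on the shTCF1 arrays. It was higher with shTCF1 than in control by 0.59 (limma adjusted p = 0.0204), and the direct log2 difference was -0.56 (limma adjusted p = 0.0382). PIK3R1, the regulatory kinase subunit, was lower on the shTCF1 arrays by a log2 difference of -0.97 (limma adjusted p = 0.041), as were PLCG1 (-0.45, limma adjusted p = 0.0314) and LCP2 (-0.40, limma adjusted p = 0.0417), both named after their values were seen. The median of the 17 was 0.00, 0.05 and 0.16 in the 3 comparisons. Against control, the calls of LAT on the shGATA3-labelled arrays and of FCER1G and PTPN6 on the shTCF1 arrays were lost without any 1 of the 4 arrays compared, with limma adjusted p up to 0.14, 0.107 and 0.113. Those of PTPN6 on the shGATA3-labelled arrays were lost without control array 1, control array 2 or shGATA3 array 2 (limma adjusted p up to 0.0632). The direct call of FCER1G was lost without any single array of the 6, and the call of PIK3R1 on the shTCF1 arrays against control was lost without any 1 array except shTCF1 array 2 (limma adjusted p up to 0.133 and 0.141). PLCG1 lost its call without any control or shTCF1 array and LCP2 without any single array of the 6 (limma adjusted p up to 0.165 and 0.197).

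Of 12 ligands of the member receptors 7 were tested, and TNFRSF14, a ligand of CD160, moved furthest. It read 5.97 and 5.79 on the control arrays, 7.2 and 7.15 on the shGATA3-labelled arrays, and 4.20 and 4.37 on the shTCF1 arrays, where it was not well above background. It was higher than control on the shGATA3-labelled arrays by 1.29 (SE 0.118, limma adjusted p = 0.00582). The direct difference was 7.41-fold (log2 difference 2.89, 95% interval 2.60 to 3.18, limma adjusted p = 0.00054). With shTCF1 it was 3.03-fold lower than control (log2 difference -1.60, 95% interval -1.89 to -1.31, limma adjusted p = 0.00385). Under the alternatives these 2 log2 differences ran from 1.41 to 3.21 and from -1.77 to -0.60. Their sizes rest partly on signal near background. The stress ligands ULBP1 and ULBP2, which bind KLRK1, were lower with both hairpins. ULBP1 read 6.06 and 6.14 on the control arrays, 5.04 and 5.03 on the shGATA3-labelled arrays and 5.29 and 5.13 on the shTCF1 arrays, with log2 differences of -1.07 (limma adjusted p = 0.00742) and -0.90 (limma adjusted p = 0.00828). ULBP2 had log2 differences of -0.63 (limma adjusted p = 0.0449) and -0.99 (limma adjusted p = 0.00983), the first lost without any single array of the 6 (limma adjusted p up to 0.214 without control array 1) and the second lost without control array 1 (limma adjusted p = 0.0589). ULBP2 was not well above background on shTCF1 array 2, so the size of the second difference rests partly on signal near background. HLA-E, the ligand of KLRD1 with its NKG2 partner, was the ligand called higher on the shTCF1 arrays (0.50, limma adjusted p = 0.0475) and was named after its value was seen. That call was lost without any 1 of the control and shTCF1 arrays (limma adjusted p up to 0.177). The median of the 7 was 0.09, -0.27 and 0.01.

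Of 13 relatives of the members 10 were tested, and those called were of the CD300 family. CD300C, an activating receptor whose outer domain closely resembles that of CD300A, read 4.0 and 3.70 on the control arrays, 5.35 and 5.40 on the shGATA3-labelled arrays, and 4.02 and 4.01 on the shTCF1 arrays, and it was well above background on the shGATA3-labelled arrays alone. It therefore entered the test only through the group in which it was high, and the p-values compare that group with signal near background. The log2 differences were 1.53 from control (limma adjusted p = 0.00462) and 1.36 from shTCF1 (limma adjusted p = 0.00442). With the floor of each array in place of its dim values, the level was 2.31-fold and 2.28-fold higher. Under the alternatives the log2 differences ran from 0.38 to 2.0 and from 0.35 to 1.64, so these folds are no lower limits. Whether the CD300A and CD300C probes tell these genes apart was not tested. CD300LB, the neighbour of CD300A on chromosome 17, was higher on the shTCF1 arrays than in control by 0.58 (limma adjusted p = 0.0314), with 0.27 (limma adjusted p = 0.229) on the shGATA3-labelled arrays, and its call was lost without any 1 of the control and shTCF1 arrays (limma adjusted p up to 0.143). The medians of the 10 were 0.18, 0.18 and -0.05. Of 10 tested neighbours of the members that are no members themselves, CD300LB was the only 1 called in any of the 3 comparisons. Its call was on the shTCF1 arrays against control, where 16.2% of all tested genes were called, so this count does not stand out.

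**Figure D4:**
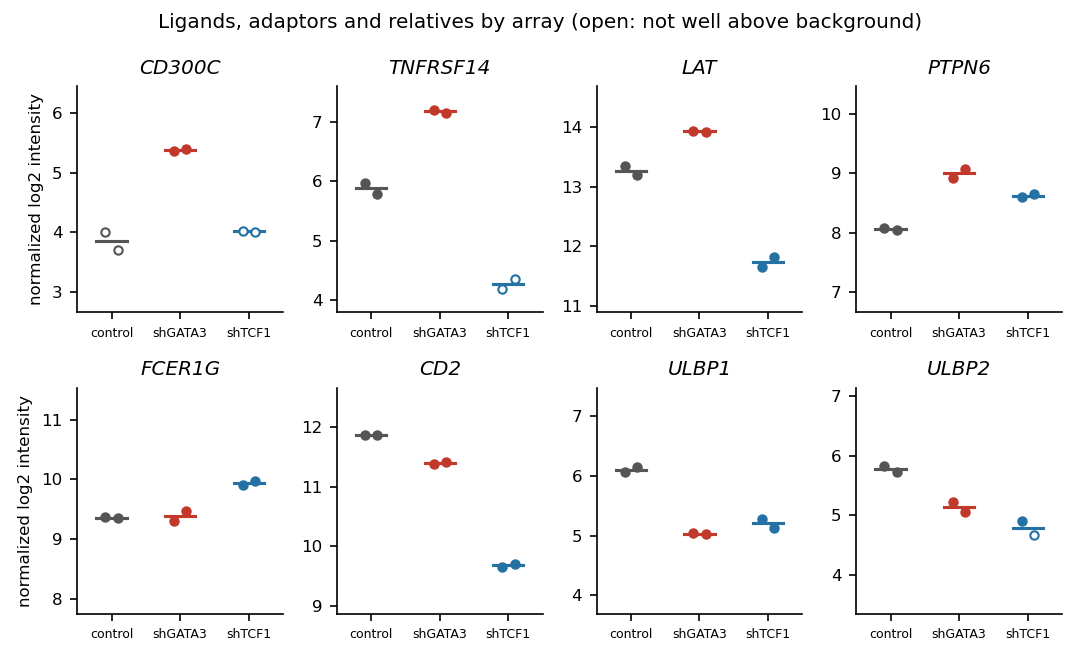
Normalized log2 intensity (vertical axis, each panel spanning the same log2 range) of 8 ligands, adaptors, receptors and relatives on each array of the control, shGATA3 and shTCF1 groups, with group means as lines and open points not well above background. CD300C, TNFRSF14 and LAT were highest on the shGATA3-labelled arrays, CD2 was lowest on the shTCF1 arrays, and ULBP1 and ULBP2 were highest on the control arrays.

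Genes whose pattern over the 6 arrays was closest to that of NCAM1 and CD300A were found by the root mean square distance of their normalized log2 values after each gene's mean was subtracted, among 13488 genes present on all arrays. For NCAM1 they were CR2, the complement and Epstein-Barr virus receptor (distance 0.0781), the homeobox gene IRX4 (0.0832), RASAL3 (0.0911), the neuropeptide receptor VIPR2 (0.116) and the pseudokinase TRIB1 (0.126). CR2 read 12.85 and 12.71 on the control arrays, 14.09 and 14.01 on the shGATA3-labelled arrays and 11.80 and 11.89 on the shTCF1 arrays. For CD300A they were the proteoglycan SRGN (0.101), DRAM1 (0.134), the cytokine receptor IL17RA (0.143), CHST12 (0.156) and CSAG1 (0.18). Pearson's r over the 6 arrays, which form 3 groups, was 0.991 to 0.997 for the first 5 and 0.964 to 0.989 for the others, as a description with no p.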

How the data were processed

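The members, gene lists and alternatives were chosen with earlier results of these data known. Intensity values were deposited as scanner files, 1 per array, from Agilent Feature Extraction (version 10.7.1.1 per the file headers, 9.1 per the labels), with spot background subtracted and detrended but no scaling between arrays. A matrix with log2 values from the authors, VSN-normalized per the methods, was deposited too, with scale and centring not stated. Its columns did not all follow their own arrays (the column of control array 2 had r = 0.8224 with that array), so it served only as an alternative. The columns of control array 1 and shGATA3 array 1 correlated most with the other array of their group (r = 0.992 and 0.9906). The medians of the matrix columns were 4.94 to 5.11.

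Control spots and spots marked as outliers were left out, and the remaining spots of a probe were averaged. The 71 probes with no unmarked spot on 1 or more arrays were dropped, leaving 57105 of 57176 probes. The VSN model (offset and scale per array) was rewritten in R 4.3.3 and fitted with a trimming quantile of 0.9, 7 iterations and 5 strata. Tested probes were well above background on the whole of 1 group or more (31134 probes), with 1 fit over all 6 arrays, group as the only term, in limma 3.58.1 (lmFit and eBayes, two-sided, 3 residual and 2.97 prior degrees of freedom). P-values were adjusted over all tested probes by the Benjamini-Hochberg method and called below 0.05. The smallest exact permutation p for 2 against 2 arrays is 0.333, so calls rest on the spread limma pools over probes. The scripts were tested on simulated data. Probes were named through RefSeq tables (GRCh38.p14), and the files name hg19, so no probe coordinates are given. Each gene was read by its brightest tested probe. At least N-fold means the bright group's mean against, per array, the higher of the dim probe and the lowest signal well above background. It is not a confidence limit. Named genes were all members, the hairpin targets, up to 3 called genes per list and comparison with the largest change, the nearest neighbours and the 5 genes closest to NCAM1 and to CD300A. The number of arrays limits the precision, an array had 51.1% to 56.2% of its probes well above background and 0 saturated.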

Additional observations from a re-analysis of the deposited data

How the results depend on the processing

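Of 318 repeats of the members' differences under the alternatives, 274 kept their direction and their side of the threshold, 24 lost a call, 9 gained one and 11 changed sign. Members called against control numbered 3 on the shGATA3-labelled arrays (1 with no filter on dim probes, 1 to 3 without 1 array) and 1 on the shTCF1 arrays (2 with quantile normalization, normexp or only the 2 groups compared, 3 with an intensity trend or only probes above background on all 6 arrays, 0 to 2 without 1 array); the direct count was 3 (1 to 3 without 1 array). Of all tested genes, 6.93% and 16.2% were called against control in that order and 6.58% directly between the hairpins. Of 47 listed genes tested, those called numbered 9, 13 and 5. They became 15, 21 and 11 with normexp, 4 and 8 against control with no filter, 14 for shGATA3 and 12 directly with a trend, 5 for shGATA3 with only the 2 groups compared, 3 directly with probes above background on all 6 arrays, and 3 to 5 and 4 to 12 against control without 1 array. Probes called over the whole array numbered 2130, 5274 and 1925, against 560, 2272 and 901 with no filter, 4280 for shGATA3 and 3281 directly with normexp, 3912 and 3273 with a trend, 1214 directly with only the 2 groups compared, and 437 to 1454, 865 to 4930 and 701 to 1214 without 1 array. With the deposited matrix 0 members, 0 listed genes and 0 probes were called by limma in each comparison, with 3, 1 and 2 members, 5, 8 and 3 listed genes and 1814, 2652 and 1642 probes at an unadjusted p under 0.05.

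Signs that changed against control on the shGATA3-labelled arrays were those of KLRB1 (-0.12), CD244 (-0.47), TYROBP (-0.10), LAIR1 (2.28), CD2 (2.69), PLCG1 (1.45), LCP2 (2.71) and HLA-E (-0.18) with the matrix, CD244 with normexp (-0.023) and without 1 array (-0.58 to 0.74), GATA3 with 75th percentile scaling (0.004) and FCER1G without 1 array (-0.051 to 0.107). On the shTCF1 arrays they were those of HCST (0.61), LAIR1 (2.83), CD2 (0.85), PLCG1 (1.47), LCP2 (2.61), CD300C (-0.20), IRX4 (0.29), VIPR2 (0.83), SRGN (0.63) and CHST12 (0.44) with the matrix, HCST with quantile normalization (0.016) and normexp (0.0305), and KLRB1 without 1 array (-0.74 to 0.22, and -0.11 to 0.85 directly between the hairpins). The direct difference of PLCG1 turned with the matrix (-0.027) and without 1 array (-0.0119 to 0.064). The cause was not tested. Replicate numbers did not pair the samples (correlations of deviations -0.04, -0.01 and 0.05), and with the replicate block 2 (without CD300A), 1 and 3 members, 5 listed genes and 1328 probes (the last 2 on the shGATA3-labelled arrays against control) were called. Among the listed genes named in the text, the block ended the calls of LAIR1, CD2, PIK3CD and LAT on the shGATA3-labelled arrays against control, of HLA-E, PLCG1 and LCP2 on the shTCF1 arrays and of FCER1G directly between the hairpins. A slide or scan block was not run, since all arrays shared 1 slide and 1 scan.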
